A study of Mus musculus with 54 samples.

Results

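The 9 genes described here are 8 lysosomal cathepsins (Ctsa, Ctsb, Ctsc, Ctsd, Ctsh, Ctsl, Ctss and Ctsz) and cystatin C (Cst3), an inhibitor of the cysteine cathepsins. They were chosen by name, as proteases that can digest alpha-synuclein (aSyn), the protein that aggregates in Parkinson disease, together with their inhibitor. They are 9 of 16632 genes in the deposited count table, and all 9 passed the filter on low counts, which left 13169 genes. RNA was read near the 3′ end of transcripts, in 54 libraries that fall into 14 groups of C57BL/6 primary microglia. All cells came from neonatal brains, were grown over an astrocyte layer in medium with L929 cell supernatant, and were shaken off that layer. Untreated cells gave 6 libraries, and cells given 1 µM Atto-488-labelled aSyn for 14 h without co-culture (aSyn-treated) gave 4. Donors carried the same aSyn load, acceptors carried the dye CellTracer Violet and no added aSyn, and both were mixed and then sorted apart after 0, 15, 30, 60, 150 or 300 min. There were 3 or 4 libraries of each kind at each time. The study concerns a degradation network between microglia, and the comparisons here ask whether protease transcripts differed with the aSyn load and over co-culture time. The labels describe sorting for the co-cultures and do not say whether the untreated and aSyn-treated cells were sorted too. Their protocol lists times from 15 min on, and the 0 min groups are known from the group labels alone.

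Cathepsins are made as inactive precursors, are sorted to endosomes and lysosomes largely by mannose 6-phosphate receptors, and become active at low pH, where they degrade proteins that the cell has taken up. Most are cysteine proteases, while cathepsin D is an aspartic and cathepsin A a serine protease. Cystatins bind cysteine cathepsins tightly and block them, and cystatin C is secreted and found in most body fluids. Microglia, the phagocytes of the brain, express cathepsins strongly, and cathepsin S also trims the invariant chain of MHC class II. In vitro, cathepsins B, L and D are known to cleave aSyn.

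The genes lie on 6 chromosomes, in GRCm38 (mm10) coordinates of GENCODE M21: Cst3 at chr2:148871722-148875692, minus strand, Ctsa at chr2:164832873-164841032, plus strand, Ctsz at chr2:174427493-174439039, minus strand, Ctss at chr3:95526786-95556403, plus strand, Ctsc at chr7:88278085-88310888, plus strand, Ctsd at chr7:142375911-142388038, minus strand, Ctsh at chr9:90054152-90076089, plus strand, Ctsl at chr13:64359337-64370890, minus strand, and Ctsb at chr14:63122462-63145923, plus strand. Ctsd, Ctsl and Ctss each overlap 1 other annotated gene on the same strand (Gm49369, Gm49230 and Hmgb1-ps5). Ctsa, Ctsb, Ctsc, Ctsl and Ctsz overlap genes on the opposite strand, among them Pltp, Fdft1 and Nelfcd. The annotation and strand setting of the counting are not given in the sources used here, so reads shared with these neighbours cannot be told apart. RefSeq's promoter table (GRCm38.p6) held windows for 7 of the 9 genes. Bases before RefSeq's start are printed as far as they lie outside the extent GENCODE gives the gene. They are given for Ctsz and Ctsc, which were higher in donors than acceptors in every pair, and for Cst3, the inhibitor. They are also given for Ctsd, which had the lowest log2 ratio of donors to acceptors of the 9 genes, in replicate number 4. None of the printed bases is in an annotated exon. The Ctsl window lies wholly inside the gene, across a first intron and a short first exon of GENCODE transcripts, and is not printed. Each sequence is written 5′ to 3′ on the gene's own strand. Capitals mark CACGTG, the core of the element bound by TFEB and its relatives, which drive lysosomal genes, and GAGGAA or its reverse complement TTCCTC, the core bound by the myeloid factor PU.1, and the Ctsz stretch holds neither. The stretches are chr2:174439040-174439289 (minus strand) for Ctsz, chr7:88277835-88278084 (plus strand) for Ctsc, chr2:148875693-148875762 (minus strand) for Cst3 and chr7:142388039-142388077 (minus strand) for Ctsd.
Ctsz: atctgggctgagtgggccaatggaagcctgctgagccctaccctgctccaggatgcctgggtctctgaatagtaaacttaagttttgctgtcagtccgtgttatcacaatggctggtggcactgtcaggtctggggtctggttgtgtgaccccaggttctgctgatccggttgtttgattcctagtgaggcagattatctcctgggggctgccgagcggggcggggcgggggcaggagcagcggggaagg
Ctsc: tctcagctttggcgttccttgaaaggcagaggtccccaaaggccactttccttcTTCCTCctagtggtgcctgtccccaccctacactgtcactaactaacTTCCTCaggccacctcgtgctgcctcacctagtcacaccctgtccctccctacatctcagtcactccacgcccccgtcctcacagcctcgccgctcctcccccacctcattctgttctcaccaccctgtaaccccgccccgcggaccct
Cst3: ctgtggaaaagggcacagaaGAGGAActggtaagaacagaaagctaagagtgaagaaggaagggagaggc
Ctsd: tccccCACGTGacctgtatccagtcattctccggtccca

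Motifs were counted on both strands in windows of 300 bases, from 250 before to 50 after the start. CACGTG was in the windows of Ctsa, Ctsd and Ctsl, and in 7.15% of all 32851 windows. Ctsd held it 2 times, once in the printed stretch and once within a first exon of a longer GENCODE transcript, and the Ctsl match lay in the first intron of another. GAGGAA was in the windows of Cst3, Ctsc and Ctss, against 28.3% of all windows. TGAGTCA, the AP-1 site, was in none of the 7 genes' windows and in 5.2% of all, and the kappaB motif was in that of Ctsz, 7 bases before the start, and in 8.36% of all. These letters describe the windows and were not tested for binding.

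Library totals ranged from 7807389 to 15537493 counts, and the smallest count of any of the 9 genes in any library was 1388, so counting error was small for all of them. The replicate numbers in the labels are called experiments 1 to 4 here, and each has 1 cell passage number (3, 1, 2 and 2). Numbers 2 and 4 each have a pair of untreated libraries, which were summed, so 52 units entered the tests. The labels do not say that the numbers are separate cultures or litters, so p-values measure the spread between these samples. Experiment 4 stood apart. Its library identifiers form a run of numbers away from the others, and the ribosomal RNA precursor Rn45s held 18.0% of its counts on average, against 6.64% in experiments 1 to 3. The 9 microglial markers together reached 1526 to 5082 CPM (a gene's count relative to its library's TMM-scaled total), and none was at 0 in any group. The 9 astrocyte markers reached 8.02 to 156 CPM, with Aqp4 at 0 in donors at 0 min. In bulk RNA, fewer cells of a type and less RNA per cell cannot be told apart.

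The 9 genes together took 1.31 to 3.17% of all counts in a unit, with a median of 2.82%. In untreated cells Ctsb ranked 6 and Ctsd 9 of 13169 genes by CPM of 3′ end reads, which was not divided by transcript length. Ctss ranked 23, Cst3 29, Ctsa 83 and Ctsz 101, followed by Ctsl at 227, Ctsc at 275 and Ctsh at 694. Both 0 min groups hold no library of experiment 4, donors at 60 min none of experiment 2 and acceptors at 300 min none of experiment 3, so means were ranked over the other 10 groups, which hold all 4 experiments. Over these groups the mean level of each gene varied by 1.16-fold (Ctsb) to 1.70-fold (Ctsl). Ctsl, Ctsz and Ctss were lowest in untreated cells. Ctsl was highest in aSyn-treated cells, at 923 ± 149.9 CPM, and averaged 543 ± 54.0 CPM in untreated cells (SD, n = 4 each). Ctsz was highest in donors at 30 min, at 1509 ± 144 CPM (SD, n = 4), and averaged 1002 ± 383 CPM (SD, n = 4) in untreated cells. Ctss, Ctsc and Ctsh were likewise highest in a donor group, while Cst3, Ctsa, Ctsb and Ctsd were highest in an acceptor group. Of these 4, Ctsa, Ctsb and Ctsd were lowest in a donor group and Cst3 in aSyn-treated cells. With all 14 groups ordered by mean, no neighbouring groups of any gene differed by more than the larger of their SDs.

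Among the cysteine endopeptidases, Ctsb averaged 9461 ± 1266 CPM (SD, n = 4) in untreated cells, 10094 ± 503 CPM (SD, n = 4) in acceptors at 150 min, its highest mean, and 8685 ± 2328 CPM (SD, n = 4) in donors at 300 min, its lowest. Ctss averaged 2596 ± 970.3 CPM (SD, n = 4) in untreated cells and 3311 ± 559 CPM (SD, n = 4) in donors at 30 min. Among the exopeptidases, Ctsc averaged 453 ± 239.9 CPM (SD, n = 4) in untreated cells, with its lowest mean in acceptors at 15 min, 452 ± 144 CPM (SD, n = 4), and its highest in donors at 300 min, 637 ± 65.8 CPM (SD, n = 4). Ctsh was the least abundant, with 208 ± 97.1 CPM (SD, n = 4) in untreated cells, 266.6 ± 16.8 CPM (SD, n = 4) in donors at 30 min and 203 ± 47.0 CPM (SD, n = 4) in acceptors at 15 min. Ctsc and Ctsh thus had their lowest mean in an acceptor group and their highest in a donor group. The aspartic protease gene Ctsd averaged 7036 ± 459.9 CPM (SD, n = 4) in untreated cells, 8574 ± 1156 CPM (SD, n = 4) in acceptors at 30 min and 6097 ± 2487 CPM (SD, n = 4) in donors at 150 min, the last with experiment 4 at 2409.7 CPM. Ctsa averaged 1144 ± 219 CPM (SD, n = 4) in untreated cells, between 1254 ± 255.2 CPM (SD, n = 4) in acceptors at 30 min and 1004 ± 319 CPM (SD, n = 4) in donors at 300 min. The inhibitor gene Cst3 averaged 2381 ± 987 CPM (SD, n = 4) in untreated cells, 2511 ± 579 CPM (SD, n = 4) in acceptors at 60 min and 1727 ± 688 CPM (SD, n = 4) in aSyn-treated cells.

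**Figure D1:**
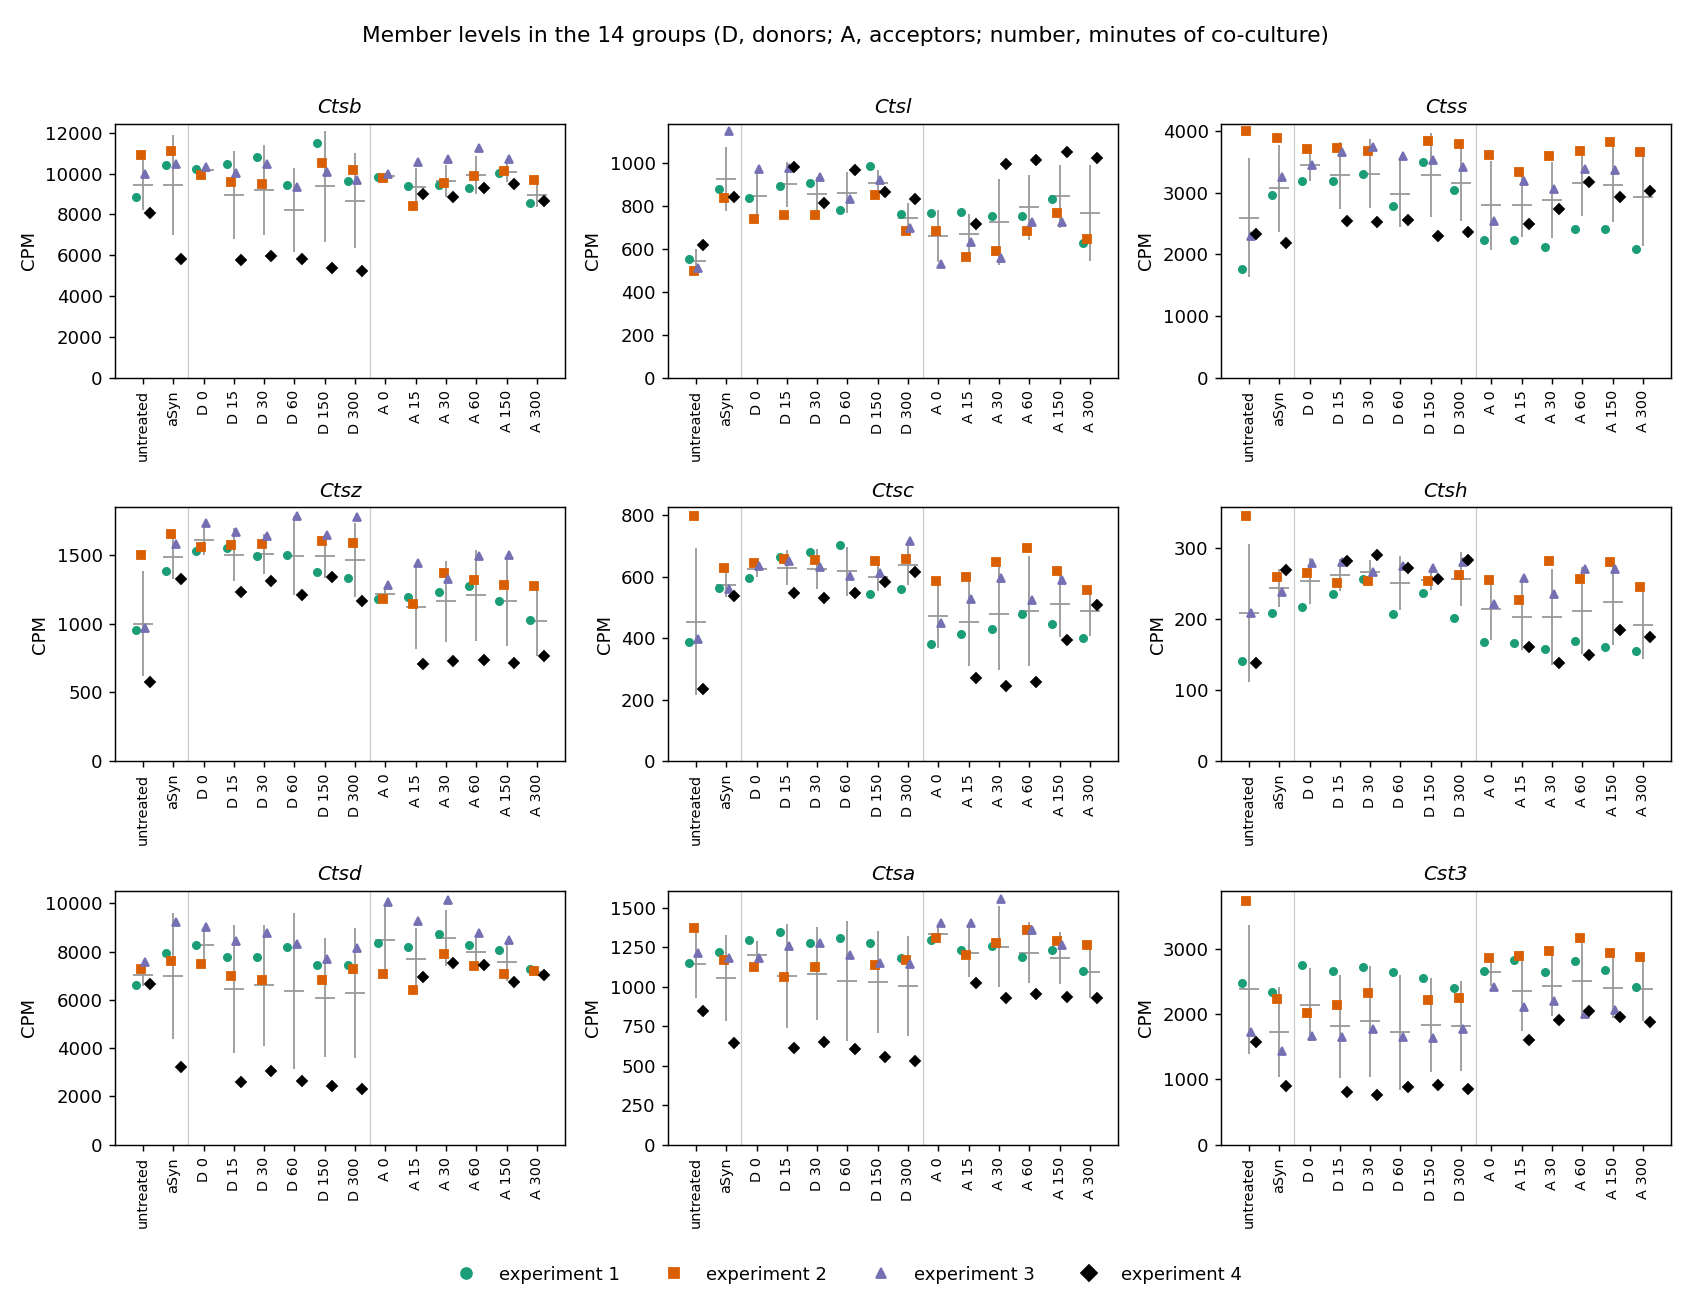
CPM of each gene (vertical axes, from 0) in the 14 groups (horizontal axes, D for donors and A for acceptors with minutes of co-culture). Points are units marked by experiment, and grey bars are the group mean and SD. Untreated Ctsl lies below every aSyn-treated unit, and the black diamonds of experiment 4 fall away from the other experiments in aSyn-treated cells and donors for Ctsd, Ctsb, Ctsa and Cst3.

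Ctsl, the gene of the cysteine endopeptidase cathepsin L, rose after exposure to aSyn alone. Its CPM in experiments 1 to 4 was 549.5, 494, 511 and 616 in untreated cells and 876, 833, 1146 and 838 in aSyn-treated cells. The groups did not overlap, and every aSyn-treated unit lay above every untreated unit. The means were 543 ± 54.0 and 923 ± 149.9 CPM (SD, n = 4 each), 1.70-fold (95% confidence interval 1.34 to 2.15) higher (log2 fold change 0.77, SE 0.17, edgeR quasi-likelihood adjusted p = 0.00595). Adjustment was by Benjamini-Hochberg over all genes tested, and genes were called at an adjusted p under 0.05. That is 1 of 9 genes called, against 2.5% of all genes and 1.6% called higher. Groups did not overlap for 1 of the 9 genes and for 8.1% of all genes. The increase held its direction in 4 of 4 experiments, with same-experiment log2 ratios from 0.44 to 1.17. The call was lost without experiment 1 (adjusted p = 0.0615), without experiment 3 (0.164) and in a fit of the 2 groups alone (0.0975), with log2 fold changes of 0.62 to 0.89 and adjusted p from 6.47e-06 to 0.164 over 11 alternatives.

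Libraries that share a replicate number tended to lie on the same side of their group means, so each result was also computed with the replicate number as a block. With the block, the log2 fold change of Ctsl was 0.78 with an SE of 0.13 (edgeR adjusted p = 4.30e-05). Ctsz and Cst3 were called as well, which makes 3 of 9 genes against 19.2% of all genes, 2 higher against 8.95% and 1 lower against 10.2%. Ctsz encodes cathepsin Z, a cysteine carboxypeptidase. Its CPM in experiments 1 to 4 was 955, 1507, 972 and 574 untreated and 1386, 1659, 1583 and 1325 after aSyn. All 4 experiments were higher after aSyn, but the untreated unit of experiment 2 lay within the aSyn-treated range, so the groups overlapped. Its log2 fold change was 0.57 without the block (SE 0.23, edgeR adjusted p = 0.187) and 0.62 with it (SE 0.13, edgeR adjusted p = 5.59e-04), and over the alternatives the adjusted p ran from 5.59e-04 to 0.492.

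Cst3 was the 1 gene of the 9 called lower, with the block only. Its CPM in experiments 1 to 4 was 2472, 3742, 1733 and 1579 untreated and 2346, 2234, 1436 and 892 after aSyn. Each experiment was lower after aSyn, with log2 ratios from -0.82 to -0.08, and the groups overlapped widely. The log2 fold change was -0.46 without the block (SE 0.37, edgeR adjusted p = 0.552) and -0.50 with it (SE 0.18, edgeR adjusted p = 0.0455), and the alternatives gave adjusted p from 0.0455 to 0.83. Astrocytes also express Cst3. The summed astrocyte markers in experiments 1 to 4 were 11.7, 20.2, 90.0 and 156 CPM untreated and 15.0, 11.2, 18.8 and 38.0 CPM after aSyn. The Cst3 log2 ratios of the same experiments were -0.08, -0.74, -0.27 and -0.82. The ratio nearest 0, in experiment 1, came with the 1 astrocyte sum that was higher after aSyn. In experiment 3 the sum went from 90.0 to 18.8 CPM, with a Cst3 ratio of -0.27. In experiment 2 it went from 20.2 to 11.2 CPM, with a Cst3 ratio of -0.74. All 9 astrocyte markers had log2 fold changes below 0, of which 0 were called without the block and 5 with it. The oligodendrocyte lineage sum was 112 to 531 CPM untreated, and lower after aSyn in 3 of 4 experiments. Their part in the result was not tested.

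The other 6 genes were not called in either fit. The exopeptidase genes Ctsc (cathepsin C, which activates granule serine proteases) and Ctsh (an aminopeptidase) had log2 fold changes of 0.34 (SE 0.26) and 0.23 (SE 0.23). Both were higher in 3 of 4 experiments and lower in experiment 2, whose untreated unit was the highest of its group for both. Ctss, whose enzyme remains active at neutral pH, had a log2 fold change of 0.24 (SE 0.23). Ctsb, the most abundant of the 9, had one of 0.00 (95% confidence interval -0.43 to 0.43). Ctsd, which encodes the main aspartic protease of lysosomes, had one of -0.01 (-0.71 to 0.69), and Ctsa, which also encodes a protein that stabilises lysosomal galactosidase and neuraminidase, -0.12 (-0.64 to 0.40). These 3 intervals are wide and include 0. The median log2 fold change of the 9 genes was 0.23, beside -0.04 over all genes tested.

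**Figure D2:**
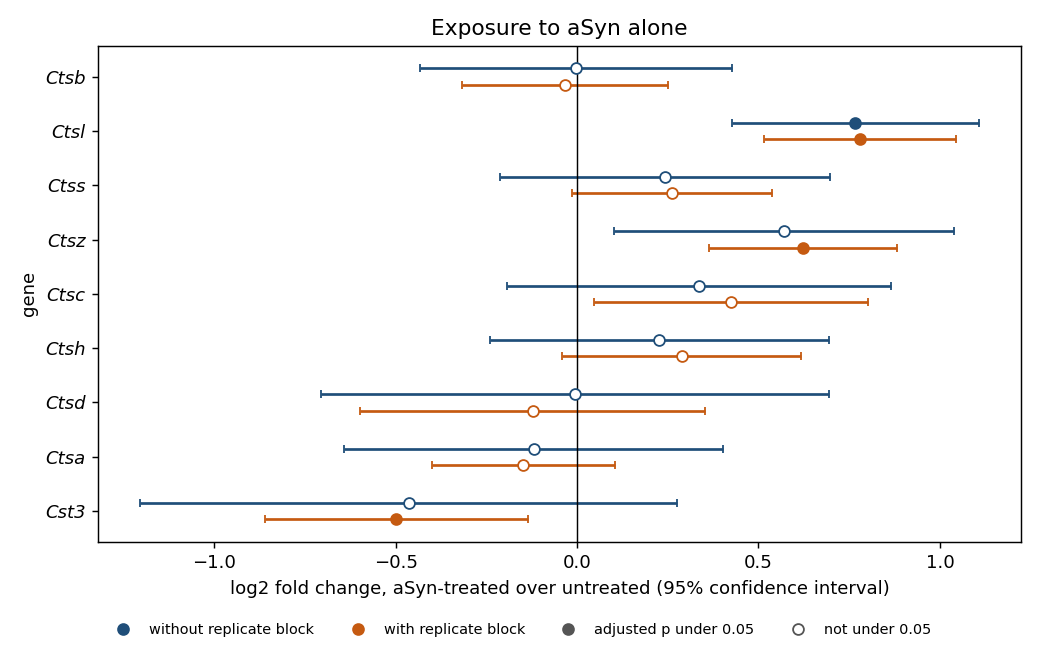
Log2 fold change of each gene in aSyn-treated over untreated cells (horizontal axis) with its 95% confidence interval, without the replicate block in blue and with it in orange, where filled points have an adjusted p under 0.05. Ctsl is filled in both fits, and Ctsz and Cst3 with the block only.

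Experiment 4 had low Ctsd, Ctsb and Ctsa after aSyn. Ctsd in experiments 1 to 4 was 6635, 7293, 7553 and 6662 CPM untreated and 7946, 7619.6, 9228 and 3230.2 CPM after aSyn. Experiments 1 to 3 were thus slightly higher after aSyn, and experiment 4 was at 3230.2 CPM, below every untreated unit. Without experiment 4 the Ctsd log2 fold change was 0.22 (edgeR adjusted p = 0.437). With the block and without experiment 4 it was 0.21 and was called (edgeR adjusted p = 0.0482), where all 4 experiments with the block gave -0.12. The fit with the block and without experiment 4 called 1620 of 13079 genes. Ctsb was 8855, 10932, 10003 and 8054 CPM untreated and 10407, 11093, 10481 and 5796 CPM after aSyn, again low in experiment 4 alone. Ctsa was 1149, 1370.0, 1211 and 847 CPM untreated and 1218, 1169, 1179 and 645 CPM after aSyn. It was lower after aSyn in 3 of 4 experiments, and experiment 4 was the lowest unit of both groups. In experiment 4, the 6 units with aSyn had Rn45s shares of 13.4 to 20.7%, and its 6 untreated and acceptor units 16.05 to 22.1%. Its microglial marker sum was 2956 CPM untreated and 1751 CPM after aSyn, where experiments 1 to 3 had 3125 to 4025 CPM after aSyn. With 1 unit per group, experiment 4 allows no test of its own, and the part of these values in the result was not tested.

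For the 9 genes no difference was detectable between co-cultured donors and cells that held aSyn without co-culture. Donors were compared with aSyn-treated cells at each of the 6 times. The edgeR test called 0 of 54 gene and time combinations, and 0 had an unadjusted p under 0.05. DESeq2 also called 0, and with the block the edgeR test called 0, with 1 unadjusted p under 0.05. Of all genes, 0% were called at 0, 15, 30, 60 and 150 min in both fits, and at 300 min 0.0304% without and 0.304% with the block. An unadjusted p under 0.05 was found for 0.904 to 2.78% of all genes without the block and 3.08 to 8.60% with it. Log2 fold changes of the 9 genes ranged from -0.32 to 0.31. Ctsl remained near the level of aSyn-treated cells through 150 min, with means of 846 ± 117 (n = 3), 899 ± 104, 852 ± 81.1, 859 ± 95.4 (n = 3) and 903 ± 61.3 CPM (SD, n = 4 elsewhere). At 300 min it was 742 ± 68.8 CPM (SD, n = 4), with 758, 681, 697 and 832 in experiments 1 to 4. The difference at 300 min was -0.32 on the log2 scale without the block (edgeR adjusted p = 1) and -0.33 with it (edgeR adjusted p = 0.424). The 6 comparisons share the aSyn-treated units. Same-experiment ratios of Ctsc were above 0 in 19 of 22 pairs, and those of Ctsd below 0 in 20 of 22, with medians in experiments 1 to 3 of 0.10 and -0.09 on the log2 scale.

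Acceptors, which received no aSyn of their own, had mean Ctsl levels between those of untreated and aSyn-treated cells at all 6 times. The mean was 659 ± 120.1 CPM at 0 min (SD, n = 3) and 669 ± 91.2, 722 ± 200.0, 792 ± 150.4 and 843 ± 146 CPM at 15, 30, 60 and 150 min (SD, n = 4 each), then 764 ± 224 CPM at 300 min (SD, n = 3). The 0 min mean lacks experiment 4 and the 300 min mean experiment 3. In experiment 4, acceptors at 30, 60, 150 and 300 min (994, 1013, 1051 and 1022 CPM) lay above its aSyn-treated unit (838 CPM). Ctsl was higher than in untreated cells of the same experiment in 22 of 22 pairs, by 0.05 to 0.77 on the log2 scale. The pairs share 4 untreated units and are not independent. Without the block the edgeR test called 0 of 54 gene and time combinations against untreated cells, and 4 had an unadjusted p under 0.05, all for Ctsl at 30, 60, 150 and 300 min. Among all genes it called 0% at 0 min, 0% at 15 min, 0.114% at 30 min, 0.0683% at 60 min, 0.137% at 150 min and 0% at 300 min. From 5.47% (300 min) to 8.22% (150 min) of all genes had an unadjusted p under 0.05. The 4 in 54 are near these shares and are not a result about the genes as a set.

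With the block, Ctsl was called higher in acceptors at 60 min (log2 fold change 0.54, SE 0.13, edgeR adjusted p = 0.0125). It was also called higher at 150 min (log2 fold change 0.63, SE 0.13, edgeR adjusted p = 0.00265). These were 2 calls in 54. The shares of all genes called were 0.995% at 0 min, 2.25% at 15 min and 3.6% at 30 min. They were 4% at 60 min, 4.78% at 150 min and 0.623% at 300 min. The count of calls is near these shares and is not a result about the genes as a set. At 150 min the acceptor units of experiments 1 to 4 were at 832, 767, 721 and 1051 CPM, and the untreated units at 549.5, 494, 511 and 616 CPM. DESeq2 called Ctsl at 150 min too (adjusted p = 0.0302), and without the block edgeR gave an adjusted p of 0.1. Over the alternatives the adjusted p ran from 0.0125 to 0.962 at 60 min and from 0.00265 to 0.623 at 150 min. Experiment 4 had the highest acceptor value of Ctsl from 30 min on, 994 CPM at 30 min and 1022 CPM at 300 min. Without experiment 4 the blocked fit still called Ctsl at 60 min (edgeR adjusted p = 0.0286) and 150 min (0.00593), and also Ctsd at 30 min (log2 fold change 0.31, edgeR adjusted p = 0.0101). Of 13079 genes that fit called 597, 366 and 417 at 30, 60 and 150 min. Whether the Ctsl difference of acceptors was smaller than that of aSyn-treated cells was not tested as such. For the other 8 genes the log2 fold changes without the block lay between -0.12 and 0.29.

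Donors and acceptors of the co-cultures were compared at each time. Ctsz was higher in donors in 21 of 21 same-experiment pairs, by 0.13 to 0.90 on the log2 scale, and Ctsc in 21 of 21, by 0.02 to 1.12. Ctsh was higher in 19 of 21, and Cst3 was lower in 19 of 21. Pairs of 1 experiment share a replicate number and are not independent, so these counts are descriptions. At 15 min Ctsz in experiments 1 to 4 was 1551, 1574, 1671 and 1229.9 CPM in donors and 1198, 1145, 1447 and 708 CPM in acceptors. Acceptors of experiment 3 reached above the lowest donor unit, which was that of experiment 4, so the groups overlapped. The edgeR test without the block called 0 of 54 combinations, and 2 had an unadjusted p under 0.05, Ctsl at 15 min and Ctsz at 300 min. Among all genes it called 0.251% at 0 min, 0.888% at 15 min, 0.805% at 30 min, 0.418% at 60 min, 0.167% at 150 min and 0.0304% at 300 min. DESeq2 called 0 of 54 as well. In the edgeR test without the block, 6.11% (300 min) to 11.5% (15 min) of all genes had an unadjusted p under 0.05. The 2 in 54 are not above these shares.

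With the block, donors exceeded acceptors in Ctsz at 15 min (log2 fold change 0.45, SE 0.13, edgeR adjusted p = 0.0194) and 30 min (log2 fold change 0.41, SE 0.13, edgeR adjusted p = 0.0293), and in Ctsl at 15 min (log2 fold change 0.43, SE 0.13, edgeR adjusted p = 0.0302). These were 3 calls in 54, against 4.28%, 9.57%, 10.8%, 6.7%, 5.19% and 1.38% of all genes at 0, 15, 30, 60, 150 and 300 min. The count of calls is near these shares and is not a result about the 9 genes. The blocked log2 fold change of Ctsz lay between 0.40 and 0.46 at all 6 times, with and without a call. At 15 min Ctsl was 889, 756, 973 and 978 CPM in donors and 770.2, 562, 631 and 712 CPM in acceptors of experiments 1 to 4. The lowest donor unit, of experiment 2, lay below the highest acceptor unit, of experiment 1. Adjusted p over the alternatives ran from 0.0194 to 0.707 for Ctsz at 15 min, from 0.0293 to 0.766 for Ctsz at 30 min and from 0.0239 to 0.596 for Ctsl at 15 min. Without experiment 4 the blocked fit called Ctsl at 0, 15 and 30 min (log2 fold changes 0.36, 0.44 and 0.46) and Ctsz at 0 and 15 min (0.41 and 0.36). Of 13079 genes that fit called 1450, 871 and 1122 at 0, 15 and 30 min. Cst3 was not called, with blocked log2 fold changes from -0.53 to -0.33 and a smallest edgeR adjusted p of 0.0812.

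In experiment 4, donors were far below acceptors for 4 of the genes. Its Ctsd was 2599 CPM in donors and 6962 CPM in acceptors at 15 min, and 2299.6 against 7019 CPM at 300 min. The log2 ratios of Ctsd ran from -1.61 to -1.31 over 5 times in experiment 4, and from -0.21 to 0.13 over 16 pairs in experiments 1 to 3. For Ctsb they were -0.82 to -0.57 against -0.27 to 0.20. Ctsa had -0.81 to -0.51 against -0.29 to 0.13, and Cst3 -1.33 to -1.01 against -0.55 to 0.05. For these 4 genes the ranges of experiment 4 and of experiments 1 to 3 did not meet. Ctsz in experiment 4 went the opposite way, with donors higher by 0.61 to 0.90, above the range of the other experiments (0.13 to 0.46). Ctsl and Ctss were higher in donors in 16 of 16 pairs of experiments 1 to 3 and in 1 of 5 pairs of experiment 4. Left out of the fit, experiment 4 moved the Ctsd difference at 150 min from -0.32 to -0.09 on the log2 scale, and the Cst3 difference from -0.40 to -0.25. Marker sums of experiment 4 also differed between the sorted cells. The microglial sum was 1526 to 1793 CPM in its donors and 2583 to 3042 CPM in its acceptors, and the astrocyte sum 11.1 to 29.6 CPM against 27.0 to 43.8 CPM. S100a8, the 1 of 5 listed neutrophil markers in the table, was at 4.20 to 8.46 CPM in donors and 0.405 to 1.18 CPM in acceptors of experiment 4. Their part in the result was not tested, nor was a difference between experiments, since experiment 4 has 1 unit per group.

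**Figure D3:**
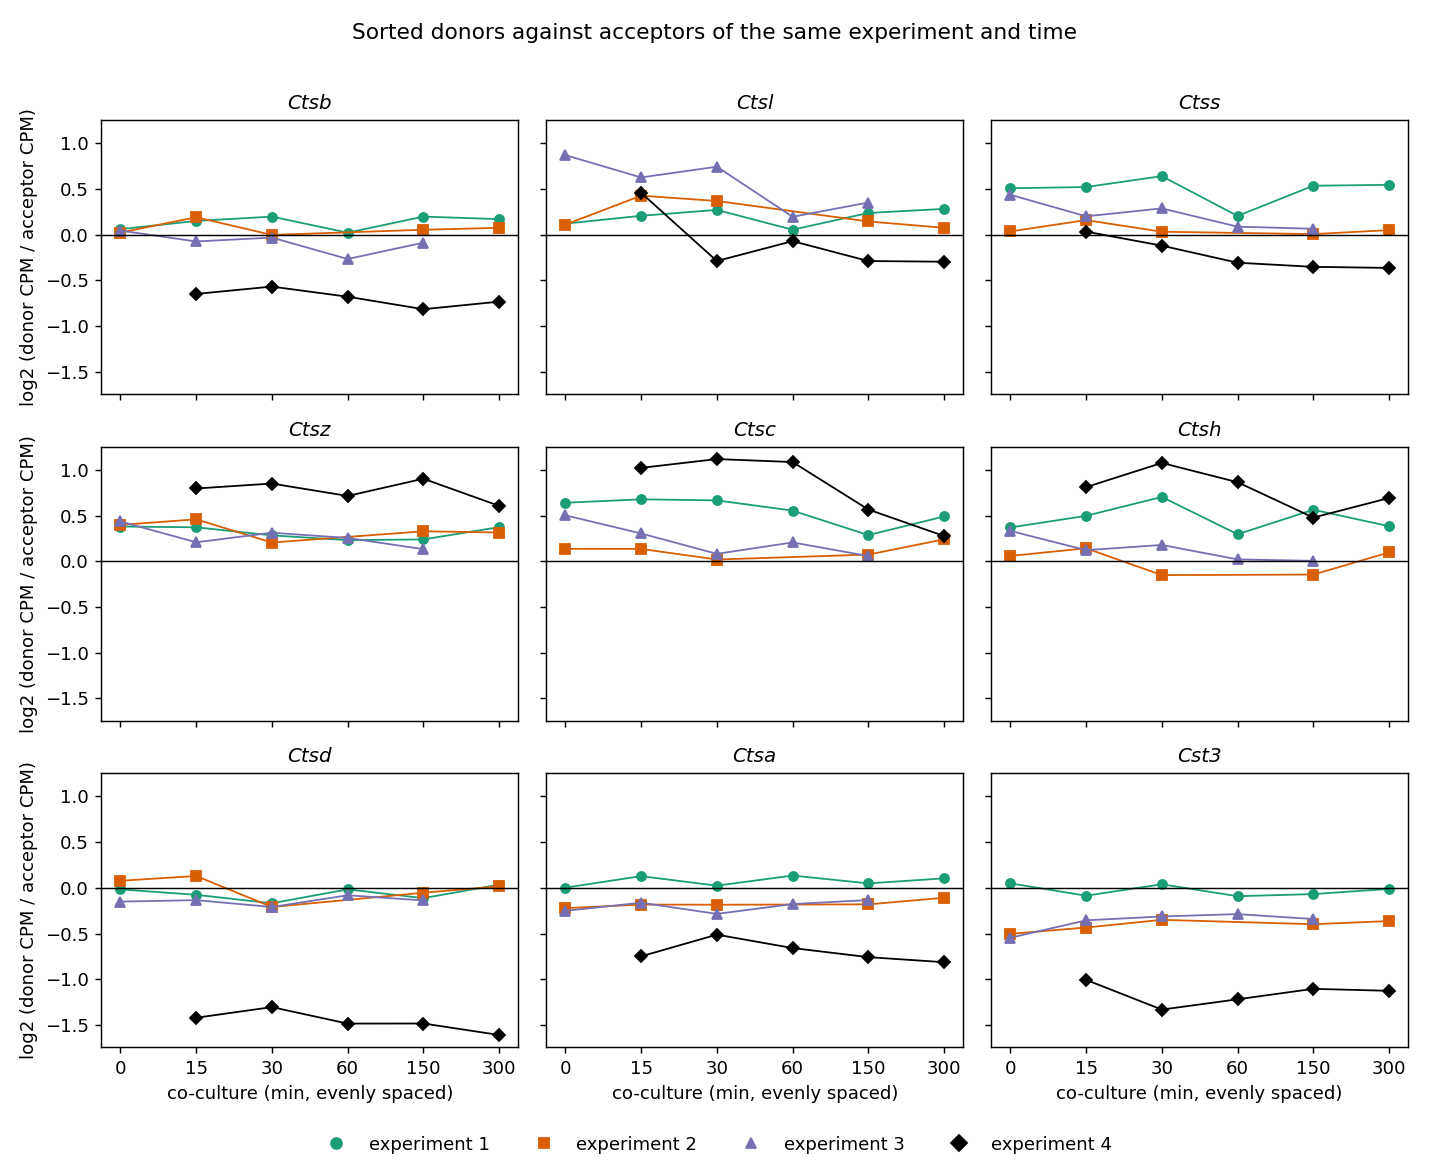
Log2 ratio of donor to acceptor CPM of the same experiment (vertical axes) at each co-culture time (horizontal axes, evenly spaced), 1 line per experiment. Ctsz and Ctsc lie above 0 in 21 of 21 pairs, and experiment 4 (black) lies below the other experiments for Ctsb, Ctsd, Ctsa and Cst3.

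None of the 9 genes passed an F test over the 6 co-culture times, in donors, in acceptors or in the difference between them. The edgeR test called 0 of 9 in each, with 0 at an unadjusted p under 0.05, and DESeq2 called 0 in each. Among all genes it called 0.0607% in donors, 0.00759% in acceptors and 0% for the difference. With the block, 0 of 9 were called in each of the 3 tests, with 0 at an unadjusted p under 0.05, against 0.577%, 0.137% and 0.0456% of all genes.

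Transcripts of the inhibitor and of the proteases were described as Cst3 counts per 100 counts of the 6 cysteine cathepsin genes (Ctsb, Ctsc, Ctsh, Ctsl, Ctss and Ctsz). Ctsb weighs most among the 6, at 9461 CPM in untreated cells, with Ctss next at 2596 CPM. Protein and enzyme activity were not measured. This ratio is free of library scaling. It was 19.5, 20.7, 12.05 and 13.2 in untreated units of experiments 1 to 4 and 14.3, 12.2, 8.32 and 8.14 after aSyn. Each experiment was lower after aSyn, with means of 16.4 ± 4.38 (SD, n = 4) and 10.7 ± 3.02 (SD, n = 4), and the groups overlapped. Donors had means of 11.2 to 12.7 and acceptors of 15.1 to 17.4 over the 6 times. Donors lay below acceptors of the same experiment in 21 of 21 pairs, below aSyn-treated cells in 5 of 22, and acceptors lay below untreated cells in 13 of 22. The ratio was formed with the members' results known and was given no test.

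**Figure D4:**
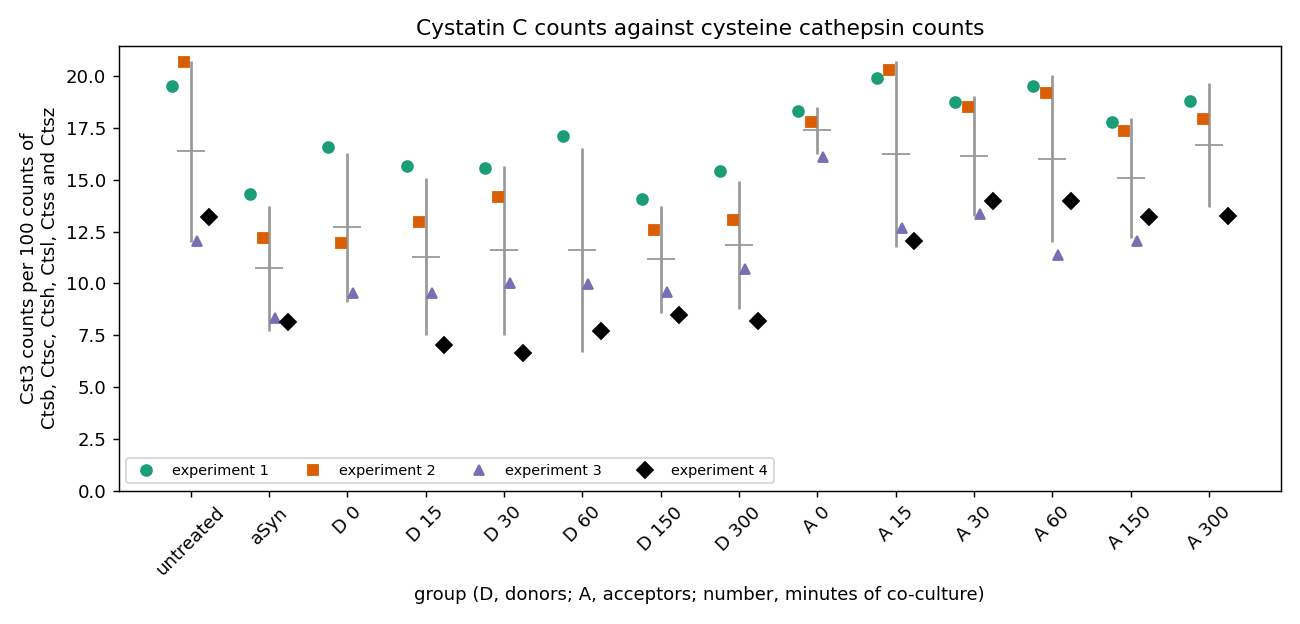
Cst3 counts per 100 counts of the 6 cysteine cathepsin genes (vertical axis, from 0) by group, with points for units marked by experiment and grey bars for mean and SD. Acceptors and untreated cells have group means from 15.1 to 17.4, and aSyn-treated cells and donors from 10.7 to 12.7.

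Correlations among the 9 genes were described over the 52 units, centred on their experiment's mean. Pearson's r of log2 CPM was 0.89 for Cst3 with Ctsa, 0.89 for Ctsa with Ctsd and 0.88 for Ctsb with Ctsd. It was 0.89 for Ctsc with Ctsh and 0.86 for Ctsh with Ctsz. It was below 0 for Cst3 with Ctsz (-0.71), Ctsd with Ctsh (-0.70) and Ctsb with Ctsh (-0.45), Ctsz (-0.49) and Ctsc (-0.46). Units share experiments, groups and library scaling, so these values are descriptions. Several values changed sign or size without experiment 4. In the 40 units of experiments 1 to 3, Ctsb with Ctsd was 0.31, Ctsa with Ctsd 0.56 and Cst3 with Ctsz -0.35. Cst3 with Ctsb was 0.08 and Ctsd with Ctsh 0.06. Ctsh with Ctsz was 0.72, while Ctsc with Ctsh (0.85) and Cst3 with Ctsa (0.80) changed less. Ctsb turned positive with Ctsh (0.61), Ctsz (0.42) and Ctsc (0.37), each above its value with Ctsd. Ctss was at 0.90 with Ctsh in those units, and Cst3 at -0.59 with Ctsl.

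The genes outside the 9 with the most similar pattern, by Pearson's r over the same 52 centred units, were named for each. For Ctsz they were Nupr1 (0.96), Ccl5 (0.96) and C3 (0.96). For Cst3 they were Vkorc1 (0.94), Serinc3 (0.94) and Pros1 (0.92), and for Ctsd Syngr1 (0.96), Mfge8 (0.95) and Hexa (0.94). Ctsa was closest to Hsd17b11 (0.92), Man2b1 (0.91) and Npm1 (0.91), and Ctsb to Tyrobp (0.92), Atp6v0d2 (0.90) and Selenop (0.90). Ctsc was closest to Ms4a6b (0.92), Myd88 (0.91) and Il2rg (0.91), and Ctsh to Fcgr4 (0.94), AW112010 (0.92) and Ms4a6b (0.92), with Ms4a6b in both. For Ctsl and Ctss the values were lower, with Csf2rb (0.82), Rnf149 (0.82) and Cdk20 (0.81) for Ctsl and Cd300c2 (0.83), Cyba (0.82) and Pld4 (0.80) for Ctss. For Ctsd, Spearman's rho with the same 3 genes was lower than r, at 0.78, 0.76 and 0.69.

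Lists of related genes were read beside the 9, first for aSyn-treated against untreated cells. Of 17 other cathepsins and lysosomal peptidases, 9 were in the table and 7 were tested, and 0 were called without the block (2 with an unadjusted p under 0.05, and 0 called by DESeq2). These stand beside 17.1% of all genes with an unadjusted p under 0.05 and 2.5% called. With the block 1 of 7 was called, beside 19.2% of all genes. Ctsk, cathepsin K, a collagen-degrading protease of osteoclasts, was higher at a low level (2.38 ± 0.321 against 1.12 ± 0.406 CPM, SD with n = 4 here and for the genes that follow, log2 fold change 1.06, SE 0.37, edgeR adjusted p = 0.0384). Lgmn, the lysosomal asparaginyl endopeptidase that processes cathepsins, had a log2 fold change of 0.20 (SE 0.19) without the block. Of 24 other cystatins and serpins, 11 were in the table and 7 were tested, with 0 called without the block (3 with an unadjusted p under 0.05, and 0 called by DESeq2) and 3 of 7 higher with it, beside 8.95% of all genes. These were Cstb, the cytosolic stefin B (1797 ± 435 against 1319.8 ± 206 CPM, log2 fold change 0.43, SE 0.09, edgeR adjusted p = 4.31e-04), Cst7, the lysosomal cystatin F (67.8 ± 41.5 against 27.0 ± 20.6 CPM, log2 fold change 1.40, SE 0.41, edgeR adjusted p = 0.0147), and Csta2 (19.4 ± 23.4 against 1.27 ± 1.40 CPM, log2 fold change 3.50, SE 0.59, edgeR adjusted p = 4.56e-05). Csta2 belongs to a cluster of near-identical stefin A genes, so its counts are uncertain. Cstb, like Ctsl, was also called with the block in acceptors at 60 min (log2 fold change 0.29, SE 0.09, edgeR adjusted p = 0.0437) and 150 min (log2 fold change 0.36, SE 0.09, edgeR adjusted p = 0.0113). The blocked fit called 4% and 4.78% of all genes at these times. The cystatins that were called lay higher after aSyn, while Cst3 lay lower.

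All 20 sorting receptors, partners and regulators were tested, and 1 was called after aSyn without the block, beside 2.5% of all genes. Tfec, a relative of TFEB found in macrophages, rose after aSyn, at 23.3 ± 4.58 against 8.72 ± 0.880 CPM (SD, n = 4 each, log2 fold change 1.42, SE 0.30, edgeR adjusted p = 0.00477), and was higher in donors than acceptors at 15 min (log2 fold change 1.37, SE 0.30, edgeR adjusted p = 0.0126). With the block 3 of 20 were called after aSyn, below the 19.2% of all genes, with Tfec and Tfe3 (log2 fold change 0.27, SE 0.09, edgeR adjusted p = 0.0321) higher and Sort1, the sortilin gene (log2 fold change -1.34, SE 0.49, edgeR adjusted p = 0.0498), lower. Tfeb itself had a log2 fold change of 0.05 (SE 0.21) without the block. Without the block, Tfec at 15 min was the 1 call of the 34 list genes over the 6 donor and acceptor comparisons. Of all genes, 0.0304% (300 min) to 0.888% (15 min) were called there. The block called Tfec higher in donors at 0, 15, 30 and 60 min, with log2 fold changes from 1.14 to 1.39. It also called M6pr, the small mannose 6-phosphate receptor, higher in donors at 15 min (log2 fold change 0.59, SE 0.16, edgeR adjusted p = 0.0134) and at 30 min (log2 fold change 0.51, SE 0.16, edgeR adjusted p = 0.0293). Lamp2, a lysosomal membrane protein, was lower in donors at 15 min (log2 fold change -0.29, SE 0.08, edgeR adjusted p = 0.0181) and again at 30, 60 and 150 min, with log2 fold changes of -0.32, -0.29 and -0.30. Among the cystatins and serpins Csta2 was higher in donors at 15, 30 and 60 min and Serpina3g at 30 min, both from families of near-identical genes. At 15 min Csta2 was 12.4 ± 18.4 against 1.74 ± 1.44 CPM, with a donor SD above the mean. Serpina3g was at a low level, 1.42 ± 1.04 against 0.149 ± 0.209 CPM (SD, n = 4 each for both genes). Ctse, the aspartic protease cathepsin E, was lower in donors at 0 min (log2 fold change -2.12, SE 0.61, edgeR adjusted p = 0.0378). Its level was low too, 0.531 ± 0.251 against 2.36 ± 1.29 CPM (SD, n = 3 each). No list gene was called at 300 min with the block. In these donor and acceptor comparisons the blocked fit called 4.28%, 9.57%, 10.8%, 6.7%, 5.19% and 1.38% of all genes at 0, 15, 30, 60, 150 and 300 min. The counts of list calls were not tested against these shares and are not a result about the lists. The median log2 fold changes after aSyn without the block were -0.20 for the 7 peptidases, 0.71 for the 7 cystatins and serpins and 0.01 for the 20 sorting genes, beside -0.04 over all genes tested.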

How the data were processed

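The authors' table holds raw counts by gene symbol for 54 libraries. A second table the authors deposited holds a normalized signal, which equals the count divided by a size factor for 100% of values within 0.051. This deposited signal was used for that check only. Per the labels' protocols, libraries were QuantSeq 3′ forward and sequenced as single reads. The submitters' processing notes name STAR, Partek, DESeq2 and mm10 without roles. Every count column was mapped to a sample by its title.

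Groups come from the labels. The members and all gene lists were chosen with earlier results of these data known. Untreated libraries that share a number were summed, although they differed beyond sampling noise (chi-square over degrees of freedom 10.3 and 12.1). Genes were kept by filterByExpr with a minimum count of 10. Tests used edgeR 4.0.16 (R 4.3.3) with TMM scaling and the quasi-likelihood F test in 1 group-means fit of all 14 groups, with 19 pairwise comparisons and 3 F tests over time. Benjamini-Hochberg adjustment was over all genes. The biological coefficient of variation was 38.1%, and 21.0% with the replicate block. The pairing comes from the replicate numbers in the labels: same-numbered libraries deviated together, with mean r across genes of 0.34 to 0.59 per comparison and the lowest pair at 0.20. SEs were derived from the fold change and its F statistic. CPM values are on TMM-scaled totals, and log2 values for correlations used a prior count of 2. The fit was run on simulated counts as a check of the code. The check's threshold for recovery was set on large fold changes, so it gives no estimate of power at the sizes described here.

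Alternatives were the block, median-of-ratios scaling, DESeq2 1.42.0, no filter, only the groups compared, untreated libraries kept apart, each experiment left out and, added after seeing the data, the block without experiment 4. Named genes were all 9 members, every list gene called in a comparison described, and the 3 genes closest to each member in pattern. List genes given without a call (Lgmn, Tfeb) were chosen after their values were seen. Promoter windows are from RefSeq (GRCm38.p6), and gene positions from GENCODE M21.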

Additional observations from a re-analysis of the deposited data

Results flagged for a closer look

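In groups of 4 units, the gap between the lowest or highest unit and its neighbour was divided by the group's range and set against Dixon's critical value at 95%. Of 90 gene and group combinations, 9 exceeded it, and 8 of these were the lowest value in experiment 4. Chance alone passes about 1 in 20, and the genes are not independent of each other.

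Ctsa of experiment 4 stood below the other experiments in aSyn-treated cells (645 CPM against 1169 CPM, ratio 0.915), in donors at 300 min (527 CPM against 1142 CPM, ratio 0.942) and in acceptors at 150 min (937 CPM against 1232 CPM, ratio 0.842). Ctsb of experiment 4 did so in aSyn-treated cells (5796 CPM against 10407 CPM, ratio 0.871) and in donors at 300 min (5214 CPM against 9656 CPM, ratio 0.891), and Ctsd in donors at 150 min (2409.7 CPM against 6820.0 CPM, ratio 0.831) and 300 min (2299.6 CPM against 7299 CPM, ratio 0.855). Ctsc of experiment 4 was the lowest in donors at 15 min (545 CPM against 651 CPM, ratio 0.901), although its ratio of donors to acceptors was the largest of the experiments there. Ctsl of experiment 3 was the highest in aSyn-treated cells (1146 CPM against 876 CPM, ratio 0.865), and Ctsl was not called without experiment 3 or without experiment 1.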

How the results depend on the processing

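Over 11 alternatives, the 171 gene and comparison results gave 1881 values. Of these, 1747 kept direction and side of the threshold, 19 gained a call, 3 lost the call of Ctsl, 111 changed sign without a call in either fit (by at most 0.27 on the log2 scale) and 1 was called with the sign reversed. That was Ctsd after aSyn, at 0.21 with the replicate block and without experiment 4. Calls after aSyn numbered 1 without the block, 3 with the replicate block, 4 with the block and without experiment 4, 0 in a fit of the compared groups alone, and 0 to 1 when each experiment was left out. Among all genes, the block without experiment 4 called 1620 of 13079, and the fit of the compared groups alone 37 of 11545. Acceptor against untreated calls numbered 0, and 2 with the block, 3 with the block and without experiment 4, 1 with DESeq2 and 1 with untreated libraries kept apart. Among all genes, the block without experiment 4 called from 10 of 13079 at 300 min to 597 at 30 min. At 150 min DESeq2 called 97 of 8567 genes, and the fit with untreated libraries kept apart 92 of 13222. Donor against acceptor calls numbered 0, 3 with the block and 5 with the block and without experiment 4. Among all genes, that last fit called from 153 of 13079 at 300 min to 1450 at 0 min. Leaving out 1 experiment at a time gave 0 calls in the acceptor against untreated and donor against acceptor comparisons. The donor against aSyn-treated comparison and the F tests over time gave 0 calls under every alternative run. The cause was not tested. Groups held 3 or 4 units, and SEs for aSyn-treated against untreated cells were 0.17 to 0.37 without the block. The parts of sequencing depth and of the spread between units in these SEs were not tested.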
